A study of Homo sapiens with 8 samples.

Results

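The subject is the list of genomic regions called as bound by SOX2 in NT2/D1 cells, a human embryonal carcinoma line. Every peak of that list on chromosomes 1 to 22 and X was taken, which gave 38405 of its 38423 peaks, out of 201619 peaks in the 6 lists of the series. The series mapped SOX2, OCT4 and NANOG by chromatin immunoprecipitation with sequencing (ChIP-seq) in NT2/D1 and in H9, a human embryonic stem cell line, with an IgG library as background in each line. No treatment is given in the labels. Each factor in each line had 1 library, so there was no replicate, no test between libraries could be made, and every value below describes these libraries. Peak lists hold no expression values, so the identity of the cells could not be checked against marker genes.

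SOX2 is a transcription factor of the HMG-box family that bends DNA and, in pluripotent cells, often binds next to OCT4 at composite elements made of a SOX site and an octamer. Together with OCT4 and NANOG it maintains the undifferentiated state, and its own gene and those of its partners are among its known targets. Embryonal carcinoma cells are the malignant stem cells of germ cell tumours, and NT2/D1 cells can be differentiated into neurons with retinoic acid. SOX2 is also a regulator of neural progenitors.

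The ChIP library had 23160564 unique tags of 24194336 (95.7%), per the file headers, and the IgG library it was called against had 2937004 of 17173085 (17.1%), so the ChIP library held 7.89 times as many unique tags. By the control tag totals in the file headers, the same IgG library served the NT2/D1 NANOG list, whereas the NT2/D1 OCT4 list and the H9 lists were called against others. The labels hold a single NT2/D1 IgG sample, and no label or header says whether it is the library used for SOX2. The band width of the peak caller was 200 in NT2/D1 and differed in H9, so the lengths and tag counts of peaks were not compared between lines. In the labels of the NT2/D1 OCT4 library the source name says NANOG, and in those of the NANOG library it says OCT4. The titles were followed here.

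Sequences are shown first for 3 promoters under a peak, picked because the peak also overlapped an H9 SOX2 peak and the letters held a match to a motif given below. Of the 198 peaks that overlapped a transcription start site (TSS), the PIPOX peak had the highest score (212), and those of RGSL1 and MTF2 had 112 and 48.9. PIPOX encodes a peroxisomal sarcosine oxidase, and MTF2 is a Polycomb accessory protein. The lines below are the RefSeq promoters of these genes in GRCh38.p14, from 250 bases before the TSS to 50 after it, 5′ to 3′ on the strand of the gene. Capitals mark matches on either strand to CATTGT (a SOX core), ACAAAG (a SOX and TCF type site) or ATGCAAAT (the octamer).
PIPOX promoter: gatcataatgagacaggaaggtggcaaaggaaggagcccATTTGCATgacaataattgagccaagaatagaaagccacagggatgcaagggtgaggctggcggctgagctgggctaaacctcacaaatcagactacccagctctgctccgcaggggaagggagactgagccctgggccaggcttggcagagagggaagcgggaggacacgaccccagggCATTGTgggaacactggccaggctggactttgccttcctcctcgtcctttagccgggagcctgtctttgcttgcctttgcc
RGSL1 promoter: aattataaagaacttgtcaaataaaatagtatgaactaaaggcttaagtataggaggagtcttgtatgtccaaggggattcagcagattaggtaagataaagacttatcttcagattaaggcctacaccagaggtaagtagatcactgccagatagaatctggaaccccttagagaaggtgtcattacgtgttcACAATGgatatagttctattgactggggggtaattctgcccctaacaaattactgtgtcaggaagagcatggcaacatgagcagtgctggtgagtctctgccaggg
MTF2 promoter: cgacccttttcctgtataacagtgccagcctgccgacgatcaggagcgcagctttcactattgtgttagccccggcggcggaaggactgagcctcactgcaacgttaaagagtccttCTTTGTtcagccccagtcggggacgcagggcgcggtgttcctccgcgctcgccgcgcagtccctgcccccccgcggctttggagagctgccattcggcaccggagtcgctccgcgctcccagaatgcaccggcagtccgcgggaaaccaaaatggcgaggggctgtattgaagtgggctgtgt
These promoters lie at chr17:29042891-29043190, chr1:182449896-182450195 and chr1:93079033-93079332 of GRCh38.p14, all on the plus strand. The peaks are given in hg19, and the promoter was tied to a peak by gene name alone, so the place of a summit within the printed letters is approximate.

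In the PIPOX promoter an octamer began 211 bases and a SOX core 31 bases before the TSS, and the recovered summit lay 8 bp past the TSS. Only exact letters were marked. The bases acaata just past this octamer, 1 base off the SOX core ACAATG, were therefore not. The peak, at chr17:27369703-27370248 in hg19, held 37 tags with a deposited fold enrichment of 26.0. The RGSL1 promoter held a SOX core 56 bases before the TSS and a summit 1 bp past it, in a peak of 34 tags and fold 6.97. MTF2 had the ACAAAG type site 133 bases and its summit 101 bp before the TSS, in a peak of 26 tags and fold 8.75. Other promoters with a peak held none of these letters, among them that of IQGAP3, whose peak had a score of 109, and those of COX16, CER1 and EIF4A2, whose peaks overlapped H9 SOX2 peaks.

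The share of promoters with these letters was set beside that of all 34961 promoters of the RefSeq table. Of the 254 promoters of genes whose TSS lay in an NT2/D1 SOX2 peak (151 of 197 such genes matched the table), 14.2% held CATTGT (95% Wilson interval 10.4 to 19.0) and 3.15% the octamer (1.60 to 6.09). The summit itself fell in the window at 73 genes, of which 54 matched. Of the 100 promoters of these genes, 20% held CATTGT (13.3 to 28.9) and 6% the octamer (2.78 to 12.5). The peak over the TSS also overlapped an H9 SOX2 peak at 26 genes, of which 18 matched. Of the 26 promoters of these genes, 9 (34.6%, 19.4 to 53.8) held CATTGT and 4 (15.4%, 6.15 to 33.5) held the octamer. Over all promoters the shares were 10.7% and 1.77%. ACAAAG was in 23.1% of these 26 promoters, 18.0% of the 100 and 17.7% of the 254, against 16.1% of all. The median G and C content was 52%, 55.2% and 56.7% in the same groups and 58.7% over all promoters, and its part in these shares was not tested. Promoters were taken by gene name, so some of those counted may hold no summit or peak. Several promoters can belong to the same gene and overlap, so the intervals, which cover counting error only, are too narrow.

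A second set of sequences belongs to microRNA host genes, because the hosts MIR9-2HG and MIR99AHG had peaks among the 15 highest scores. A microRNA silences messenger RNAs that pair with its seed, bases 2 to 8, shown in capitals.
hsa-miR-9-5p (MIR9-1HG, MIR9-2HG and MIR9-3HG): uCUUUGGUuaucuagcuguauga
hsa-miR-99a-5p (MIR99AHG): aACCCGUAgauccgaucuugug
hsa-let-7c-5p (MIR99AHG): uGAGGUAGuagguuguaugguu
hsa-miR-125b-5p (MIR99AHG): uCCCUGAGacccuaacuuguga
The mature sequences are those of RefSeq (GRCh38.p14). The 3 miR-9 genes give the same 5p product and so the same seed, whereas the 3 microRNAs of MIR99AHG have 3 different seeds. miR-9 is a microRNA of neural progenitors and neurons, and let-7c belongs to the family that LIN28 proteins hold back in pluripotent cells.

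The 3 miR-9 hosts differed in their peaks. MIR9-2HG had 2 peaks, of 89 and 10 tags, and both overlapped H9 SOX2 peaks. The larger lay 8.32 kb on the 3′ side of a TSS of the gene (chr5:87960202-87960831, fold 31.1, score 527), and the smaller was listed from another TSS. MIR9-1HG had 10 peaks of 13 to 33 tags within 27.5 kb of its TSS, and none overlapped an H9 SOX2 peak. MIR9-3HG had 3 peaks of 8, 8 and 29 tags, also with none at an H9 SOX2 peak. MIR99AHG was the nearer gene of 15 peaks, listed at 6.16 to 635 kb from a TSS of the gene, which was not the same TSS for all. The largest of these held 87 tags (chr21:17613864-17614414, fold 35.7) and the other 14 held 8 to 21.

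Most peaks of the list were small. The tag count of a peak, which is the number of ChIP tags in it without normalisation, ranged from 8 to 244 with a median of 11 and quartiles of 9 and 17. Peaks of 8 to 12 tags made up 58.1% of the list, and 343 peaks held 50 or more. All peaks together held 553926 tags, 2.39% of the unique tags of the library, on 16.8 Mb. The width ranged from 151 to 4417 bp with a median of 380 bp and quartiles of 323 and 501 bp. The summit lay at the middle of the peak, at a median of 50.3% of its width.

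The deposited score was read as 10 times the −log10 of the peak caller's p-value, since its lowest value was 30 at a stated cutoff of 0.001. Its median was 36.1 and its 99th percentile 143, and the highest was 914. A score of 100, a p-value of 1e-10, was used to set apart strong peaks. There were 778 of these (2.03%), and the values nearest to the limit were 100.1 inside it and 99.95 outside it. The deposited false discovery rate rose with score in this list. Its lowest value among the strong peaks was 18.7%, and it was 100% at each of the 15 highest scores. It was therefore not used to rank peaks.

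Tag count went with width and not with fold enrichment. Over the 38405 peaks Spearman's rho was 0.908 between tags and width, 0.619 between tags and score, 0.438 between score and fold and −0.02 between tags and fold. These are descriptions across peaks of 1 library, which share its depth and background. The fold itself took few values: 6518 peaks (16.97%) had exactly 6.25, and for 47.6% of peaks the fold was a whole number of tags over the genome-wide background of 0.961 tags per fragment length, within 0.01. Those peaks had a median of 10 tags, and the rest had 14.

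Peaks with many tags but different folds were unlike in their overlap with H9 SOX2. Among the 343 peaks with 50 or more tags, 84 had a fold of 20 or more, and 98.8% of these overlapped an H9 SOX2 peak by at least 1 bp. The share was 91.0% of 89 peaks at a fold of 10 to 20, 53.7% of 54 at 6 to 10 and 7.76% of 116 under 6. The median tag count of the 4 groups was 63, 59, 55.5 and 58, and their highest counts were 131, 148, 101 and 244. Their median width was 658.5, 806, 1315.5 and 1517 bp, and 88.8% of those under a fold of 6 lay on chromosomes 1, 2, 3, 7, 9 and 12, a set chosen in earlier work on these data for its many peaks, against 63.1% of all peaks.

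Score separated the list in the same way. The share of peaks that overlapped an H9 SOX2 peak was 3.62% of 25602 peaks at a score of 30 to 40, 14.8% of 2526 at 50 to 60, 50.5% of 523 at 80 to 100, 90.7% of 162 at 150 to 200 and 100% of the 73 at 300 or more. The overlap with the NT2/D1 NANOG list, which shares the IgG library, was 8.72% in the lowest class and 100% in the highest. With the NT2/D1 OCT4 list, which does not, it was 5.94% and 98.6%. Of the strong peaks 83.5% overlapped an H9 SOX2 peak (80.8 to 86.0), against 8.36% of the whole list (8.09 to 8.64). Median width was 346 bp in the lowest class and 613 bp in the highest, and wider peaks have more room to overlap; the part of width was not tested.

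**Figure D1:**
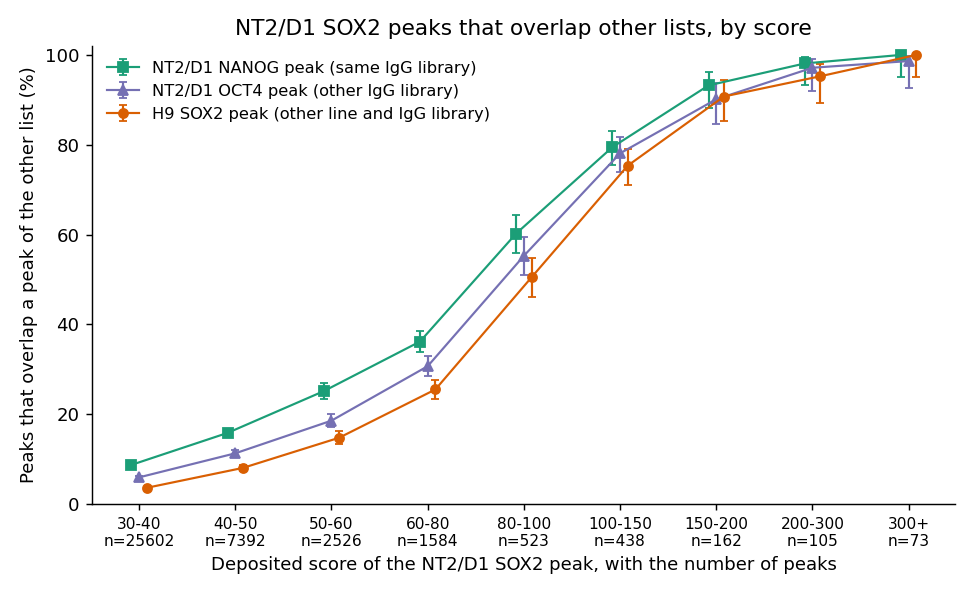
Share of NT2/D1 SOX2 peaks (vertical axis, %) that overlap by at least 1 bp a peak of the NT2/D1 NANOG, NT2/D1 OCT4 or H9 SOX2 list, by the deposited score of the peak (horizontal axis, with the number of peaks). Points are shares and bars 95% Wilson intervals, and all 3 curves start under 9% and end above 98%.

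Where a peak was shared, its summit was close to that in H9. The median distance between the NT2/D1 and H9 SOX2 summits was 28 bp over 3212 shared peaks, 17 bp over the 650 strong ones and 42 bp over the 926 with a score under 40. Of the 650 strong shared peaks, 89.7% had summits within 50 bp. To the NT2/D1 NANOG summit the median distance was 72 bp over all shared peaks. The scores of the shared peaks in NT2/D1 and H9 had a Spearman's rho of 0.426, across 3212 sites of 2 libraries.

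The 15 highest-scoring peaks were all shared. Each of the 15 overlapped a SOX2 peak in H9 and a NANOG and an OCT4 peak in NT2/D1. They held 64 to 131 tags with folds of 26.1 to 56.2, and 9 of them (60%) lay on chromosomes 1, 2, 3, 7, 9 and 12, against 63.1% of all peaks. The highest, with 131 tags, fold 48.0 and score 914, lay 26.2 kb 5′ of DNAJB6 (chr7:157102849-157103511), which encodes a co-chaperone of HSP70. The second, 120 tags and fold 40.8, lay 40.3 kb 5′ of ETV6 (chr12:11761848-11762502), an ETS-family repressor.

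These peaks were mostly far from gene starts. The nearer gene was ITPRID1 at 50.7 kb, PJA1 at 98.6 kb, MID1 at 111 kb and NPY, the neuropeptide Y gene, at 142 kb. NTRK2, the receptor of BDNF, had a peak of 76 tags at 38.6 kb on its 3′ side, and SLC2A1, the GLUT1 glucose transporter, a peak of 75 tags at 49.4 kb on its 5′ side. ADM, the gene of adrenomedullin, had a peak of 82 tags 46.9 kb on its 3′ side. SLC25A13 at 178 kb and STAG3L4 at 223 kb were the farthest. Only ZSCAN2 at 2.45 kb, SPATA45 at 4.45 kb and MIR9-2HG at 8.32 kb had a peak of this group within 10 kb.

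Of the 778 strong peaks, 128 (16.5%) had no H9 SOX2 peak and 99 (12.7%) had none of any H9 list. The 128 had a median of 37.5 tags, a median width of 945.5 bp and a median fold of 9.37, against 38 tags, 587 bp and 16.98 in the 650 shared strong peaks. They lay on chromosomes 1, 2, 3, 7, 9 and 12 in 76.6% of cases, against 50.8% of the shared ones. NT2/D1 NANOG overlapped 72.7% of the 128 and NT2/D1 OCT4 33.6%, against 89.5% and 95.2% of the shared ones. Among the 99, the highest score was that of a peak of 101 tags and fold 8.30, 46.9 kb on the 3′ side of ESYT2. The third, near TPRA1, differed from it in shape, with 36 tags on 479 bp and a fold of 25.5.

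Only 31 strong peaks (3.98%) had neither a NANOG nor an OCT4 peak in NT2/D1, and 590 (75.8%) had both. The highest of the 31 lay 94 bp 5′ of TNFSF9, the ligand of the costimulatory receptor CD137, with 54 tags and fold 8.90. FNDC3A, GRAMD2B, NCK2 and CNTFR, a receptor of ciliary neurotrophic factor, followed with 33, 21, 30 and 41 tags. In all, 5 of the 31 had an H9 SOX2 peak, among them those near GRAMD2B and CITED2.

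Position to genes was read from the deposited distances, measured from the edge of the peak. For each peak these were to the nearest TSS that it lay 5′ of and the nearest that it lay 3′ of, by the strand of the gene. A gene can have several TSSs, so the distances of its peaks need not be from the same TSS. The median distance to the nearer TSS was 54.6 kb in NT2/D1, against 74.8 kb in the H9 SOX2 list. Peaks that overlapped a TSS numbered 198 (0.516%), and 1320 lay within 1 kb (3.44%, 3.26 to 3.62), against 4.39% of the H9 SOX2 list (4.11 to 4.69). A wider peak has its edge nearer to a TSS, and the part of width in this difference between the lines was not tested. Between 1 and 5 kb there were 2668 peaks (6.95%), between 5 and 20 kb 6566 (17.1%) and between 20 and 50 kb 7810 (20.3%). A further 6592 (17.2%) lay at 50 to 100 kb, 11151 (29.0%) at 100 to 500 kb and 2298 (5.98%) beyond 500 kb.

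Strength hardly followed position. Of the strong peaks 3.47% lay within 1 kb (2.40 to 5.002), against 3.44% of all peaks, and their median distance was 61.7 kb, against 54.6 kb. Over the list Spearman's rho between score and distance was −0.02. Strong peaks made up 5.05% of the 198 peaks over a TSS and 1.52% to 2.24% of each other class of distance. An H9 SOX2 peak overlapped 5 of the 10 strong peaks over a TSS, 70.6% of the 17 others within 1 kb, 94.0% of the 50 at 1 to 5 kb and 80.2% to 88.0% of those in each class farther out.

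**Figure D2:**
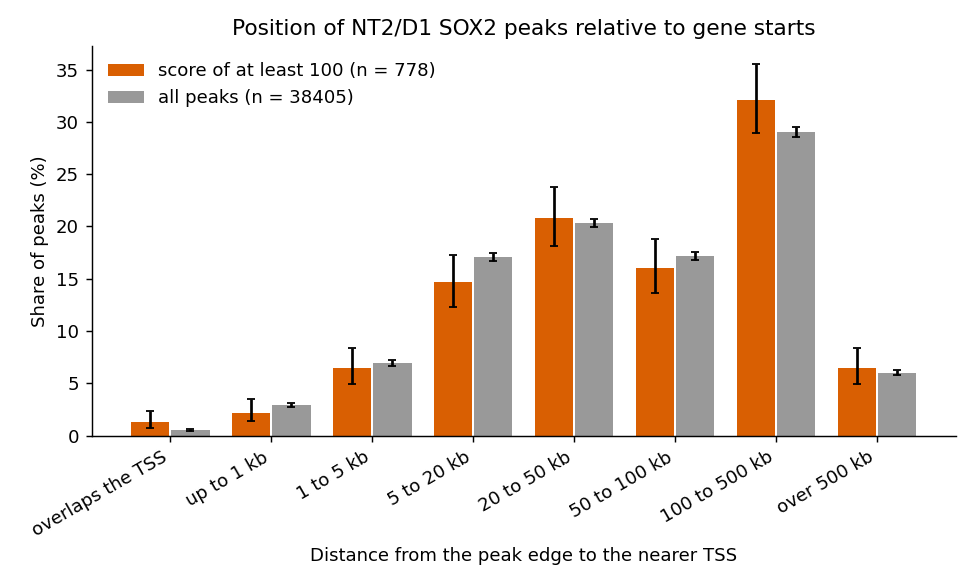
Share of peaks (vertical axis, %) in each class of distance from the peak edge to the nearer TSS (horizontal axis), for the 778 NT2/D1 SOX2 peaks with a score of at least 100 (orange) and for all 38405 (grey). Bars carry 95% Wilson intervals; the largest class is 100 to 500 kb, with 32.1% of strong peaks and 29.0% of all.

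More peaks lay past the nearer TSS than before it. The 3′ side, which holds the gene body, had 21552 peaks, or 56.4% (55.9 to 56.9) of those not over a TSS, against 55.1% (54.4 to 55.8) in the H9 SOX2 list. Of the strong peaks 54.4% (50.9 to 57.9) lay there. Around the TSS the number of summits per 500 bp was 245 to 287 within 1 kb on either side, against 132 to 143 at 2.5 to 5 kb on the 5′ side and 154 to 178 at 2.5 to 5 kb on the 3′ side. The 500 bp just 5′ of the TSS held 245 summits, of which 37 belonged to peaks with H9 SOX2 overlap. The next 500 bp on the 3′ side held 258, of which 18 did.

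The 10 strongest peaks over a TSS held 29 to 61 tags. After PIPOX came PRCC, a fusion partner of TFE3 in papillary renal cell carcinoma, with 58 tags and fold 9.37, FERRY3 with 55 tags and fold 10.3, and TIMP4, an inhibitor of matrix metalloproteinases, with 61 tags and fold 14.7. NTMT2, ZC3HC1, RGSL1, C3orf38, IQGAP3 and LINC00323 followed with scores of 150 to 108. Those of PIPOX, TIMP4, NTMT2, RGSL1 and C3orf38 overlapped H9 SOX2 peaks. Over all 198 the share was 13.1%.

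Most genes of the core pluripotency network had a SOX2 peak nearby, and many had a strong one. Of 40 such genes, 32 had a peak within 50 kb for which they were the nearer gene, against 45.4% of the 19568 genes named in the lists. A strong peak was present at 17 of the 40, against 1.77% of all genes, and a peak within 5 kb at 21, against 16.2%. The median score of the strongest peak was 104 over the 32 genes and 39.5 over all 8892 genes with a peak. For 25 of the 32 the strongest peak overlapped an H9 SOX2 peak, against 10.9% of all genes with a peak. The list was chosen for its known link to these factors and with earlier results of these data known, so its counts are a description.

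POU5F1, which encodes OCT4, had 2 peaks 1.24 and 2.16 kb 5′ of its TSS, of 43 tags with fold 19.2 and of 21 tags with fold 7.36. Both overlapped H9 SOX2 peaks and NT2/D1 NANOG peaks, and the smaller alone overlapped an NT2/D1 OCT4 peak. SOX2 itself had 4 peaks, at 44.6 and 3.69 kb on the 5′ side with 10 and 12 tags, and at 3.94 and 44.7 kb on the 3′ side with 29 and 42 tags. The 2 on the 3′ side overlapped H9 SOX2 peaks. The folds of these were 18.9 and 4.90, so the peak with more tags had the lower fold.

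SALL4, a zinc finger partner of OCT4, had 4 peaks, of which 1 was strong (32 tags, fold 20.8, 8.95 kb 5′). FOXD3, a forkhead factor, had 5 peaks of 18 to 48 tags, and 4 of them overlapped H9 SOX2 peaks. OTX2, a homeobox factor of primed pluripotent and anterior neural cells, had a peak of 58 tags and fold 36.1 at 172 bp from a TSS (chr14:57272517-57272987). Its 2 smaller peaks, of 16 and 15 tags, lay near 37 kb from another TSS of the gene. All 3 overlapped H9 SOX2 peaks. TCF7L1, a repressor at the end of the WNT pathway, had 1 peak of 31 tags.

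Chromatin and telomere genes of the list had some of its highest scores. DNMT3B, a de novo DNA methyltransferase of pluripotent cells, led with 48 tags and fold 39.6 in a peak 299 bp wide. This peak lay 997 bp on the 3′ side of a TSS (chr20:31368654-31368952). A second peak of 18 tags lay 5.80 kb on the 5′ side of another TSS of the gene. TERF1, a telomere-binding protein, had 56 tags and fold 31.2 at 6.42 kb on the 5′ side, and UTF1, a chromatin-associated factor, 27 tags and fold 17.7. PHC1, a Polycomb subunit, had 4 peaks, of which the largest held 88 tags with fold 14.2 at 2.38 kb. RIF1 had 5, the largest of 29 tags.

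L1TD1, an RNA-binding protein derived from a LINE-1 element, had the most peaks of the list, 9 of 9 to 77 tags. Only the one with 77 tags was strong (fold 15.7, 2.94 kb on the 3′ side), and it and 1 other overlapped H9 SOX2 peaks. DPPA5 had a single peak of 74 tags and fold 19.8, DPPA4 had 2 of 32 and 13 tags, and TRIM71, a let-7 target that represses messenger RNAs, had 3, the largest of 62 tags at 36.9 kb. LIN28A, the RNA-binding inhibitor of let-7 processing, had 5 peaks of 11 to 22 tags within 5.43 kb of its TSS, and none overlapped an H9 SOX2 peak. LIN28B had 1 of 13 tags at 296 bp, which did.

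LEFTY1 and LEFTY2, neighbouring antagonists of NODAL, had strong peaks of 93 tags (fold 14.0, 9.09 kb 5′) and 45 tags (fold 9.20, 4.40 kb 5′). GDF3, a ligand of the same family, had 38 tags with fold 6.95 at 534 bp. CRIPTO, the NODAL co-receptor gene also named TDGF1, had 1 peak of 13 tags at 2.86 kb, and FOXH1, the nuclear partner of the SMADs, had 2 of 9 and 19. FGF4, a known SOX2 and OCT4 target in mouse, had 3 small peaks of 9, 11 and 9 tags, none of which overlapped an H9 SOX2 peak. PODXL, a surface sialomucin, had 91 and 86 tags near 45 and 48 kb but folds of 4.61 and 5.10.

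The other genes with a peak, KLF4, KLF5, ZFP42, JARID2, CDH1, ZIC2, ZSCAN10 and MYCN, had strongest peaks with scores of 34.8 to 66.5. Strong peaks beside MYCN, with scores of 121 and 141, were counted for its antisense neighbour MYCNOS, whose TSS was nearer. Core genes that were the nearer gene of no peak within 50 kb included DPPA2, DPPA3, ESRRB, NANOG, NODAL, PRDM14 and TFCP2L1. No peak of the list named NANOG or NODAL among its 2 listed genes. A peak within 50 kb of them that named other genes is not excluded. For DPPA3 the nearest peak that named it was the GDF3 peak, 16.3 kb away. For ESRRB, PRDM14 and TFCP2L1 the nearest that named them were peaks of 8 to 10 tags at 53.1, 72.5 and 91.8 kb. The only peak that named DPPA2 lay 159 kb away.

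**Figure D3:**
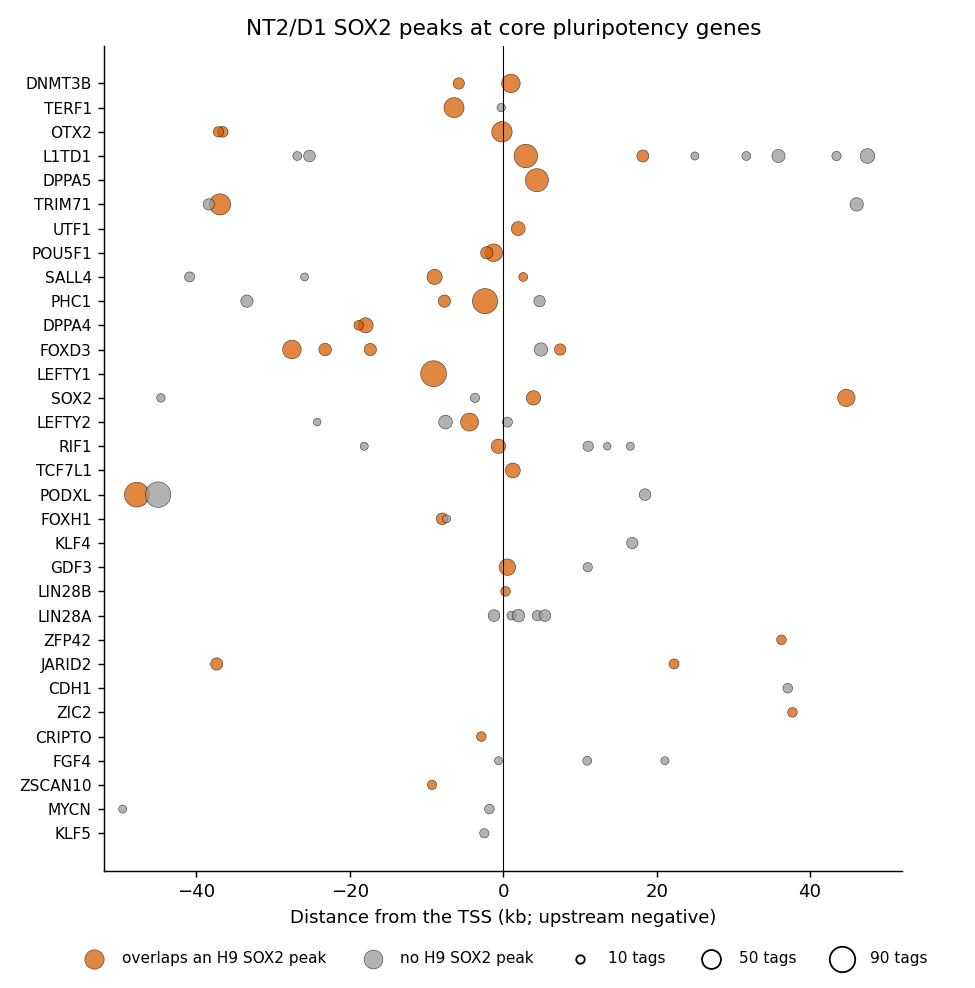
Position of the 80 NT2/D1 SOX2 peaks within 50 kb of the 32 core pluripotency genes with a peak, in kb from the TSS listed for the peak (horizontal axis, 5′ negative), genes ordered by their highest score. At DNMT3B and OTX2 the peaks are measured from different TSSs of the gene. The area of a point is proportional to tags, and orange marks the 39 peaks that overlap an H9 SOX2 peak; all 17 strong peaks are orange.

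Among the 80 peaks of these genes, 39 (48.8%) overlapped an H9 SOX2 peak, 32 (40%) an NT2/D1 NANOG peak and 37 (46.2%) an NT2/D1 OCT4 peak, against 8.36%, 14.6% and 11.1% of all peaks. All 17 strong ones overlapped H9 SOX2, and 15 each (88.2%) overlapped NT2/D1 NANOG and OCT4. Over all 778 strong peaks the shares were 83.5%, 86.8% and 85.1%, so the last 2 were near those of strong peaks in general. SOX2 and LEFTY2 lacked the NANOG overlap, and DNMT3B and POU5F1 the OCT4 overlap.

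The other lists are read against the same shares over all 19568 genes, 45.4% with a peak, 1.77% with a strong one and 16.2% with a peak within 5 kb. Of 22 genes of FGF and ERK signalling, 13 (59.1%) had a peak and 3 (13.6%) a strong one, and these 3 are feedback inhibitors of the pathway. SPRED2 had 42 tags with fold 13.1 at 5.37 kb, DUSP6, a phosphatase of ERK, had 113 tags with fold 13.3 at 1.33 kb on the 3′ side, and SPRY2 had 27 tags with fold 16.0 at 18.7 kb. SPRY1 and ETV5 came next with 20 and 18 tags. Of 25 genes of NODAL, TGFβ and BMP signalling, 19 (76.0%) had a peak and 2 (8%) a strong one. SMAD3, a signal transducer, had 10 peaks with the highest at 42 tags and fold 23.4, and BMP4, a ligand, had 38 tags with fold 13.8 at 25.7 kb 5′. SMAD7, SMAD2 and BMP7 had their strongest peaks at scores of 83.7 to 95.7, and all 3 overlapped H9 SOX2.

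Of 26 WNT genes, 21 (80.8%) had a peak and 3 (11.5%) a strong one. SFRP2, a secreted WNT antagonist, had 48 tags with fold 31.2 at 1.04 kb 5′ (chr4:154711263-154711878). The ligands WNT8B and WNT3 had 29 and 31 tags at 22.7 and 45.8 kb on the 3′ side, and WNT8A and WNT5B followed at lower scores. Of 16 NOTCH and HES genes, 8 (50%) had a peak, near the 45.4% of all genes, and none a strong one, with JAG1, a ligand, highest at 18 tags and fold 14.6, ahead of RBPJ, HES1, JAG2 and DLL1. Of 23 retinoid genes, 16 (69.6%) had a peak and 1 (4.35%) a strong one, in NR6A1, an orphan nuclear receptor that represses Pou5f1 upon differentiation in mouse, with 26 tags. CRABP1, RXRA, RXRG and RARG had strongest scores of 60.4 to 70.2.

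Of 36 neural regulators, 25 (69.4%) had a peak, 9 (25%) within 5 kb, and 3 (8.33%) had a strong one. Over the other lists outside the core, the 5 kb share ran from 5% (hepatocyte) to 34.6% (WNT). It was 27.8% in the muscle list, so the 25% is not particular to neural genes. FEZF2, a forebrain zinc finger factor, had 57 tags with fold 8.71 at 41.3 kb 5′. NES, the nestin gene, a known SOX target, had 51 tags with fold 12.3 at 3.20 kb on the 3′ side, and ZEB2 had 35 tags at 9.21 kb. ISL1 and FEZF1 had 16 and 33 tags. Of the 59 peaks of the 25 genes, 14 (23.7%) overlapped an H9 SOX2 peak, against 48.8% in the core list and 8.36% over all peaks. Of 34 genes of axon guidance and adhesion, 23 (67.6%) had a peak and 4 (11.8%) a strong one. These were NTN1 with 35 tags and fold 26.4, SEMA3A with 43 tags, NCAM2 with 38 and CNTN4 with 21, and ROBO1 followed with 15.

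Of 18 SOX genes other than SOX2 in the gene fields, 11 (61.1%) had a peak and 2 (11.1%) a strong one. SOX6 had 36 tags with fold 18.7 at 231 bp from its TSS, and SOX13 had 6 peaks, the strongest of 65 tags at 35.5 kb. SOX5 had 11 peaks, none with a score of 100, and SOX21 had 40 tags at 4.98 kb and SOX7 11 at 31.0 kb. Of 14 POU genes outside the core list, 6 (42.9%) had a peak, near the 45.4% of all genes, and none a strong one. POU3F3, POU2F1, POU3F1 and POU6F1 had strongest scores of 46.1 to 59.6, and no strongest peak overlapped H9 SOX2. Of 27 chromatin genes, 15 (55.6%) had a peak and 2 (7.41%) a strong one, in REST, the repressor of neuronal genes, with 47 tags and fold 19.2 at 134 bp 5′ of the TSS, and in KDM4C, a histone demethylase, with 38 tags. KDM2B, KDM5B and MTF2 followed with 23, 28 and 26 tags.

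Of 23 germ cell tumour markers, 10 (43.5%) had a peak, near the 45.4% of all genes. The strong one was that of DPPA5, which the core list also holds. TFAP2C, a germ cell transcription factor, had 29 tags, DMRT1 20 at 895 bp, ATF7IP 13 and KIT 13. Lists of other lineages served as background. Of 20 hepatocyte genes 3 (15%) had a peak, none of it strong, in APOB, PCK1 and SERPINA1 with 25, 23 and 11 tags, and none overlapped H9 SOX2. Of 18 muscle genes 8 (44.4%) had a peak and none a strong one, with MYL2 highest at a score of 59.9, ahead of CAV3, MYOG, DES and TNNI2. Of 20 immune genes 8 (40%) had a peak and 1 a strong one, in ZAP70 with 32 tags, followed by PTPRC, CD4, LYZ and LCK at scores of 51.4 to 67.7.

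Many genes had several peaks. Of the 8892 genes with a peak within 50 kb, 4576 had 1, 2034 had 2, 1595 had 3 or 4, 547 had 5 to 7 and 140 had 8 or more. Neighbouring peaks were a median of 29.97 kb apart, and 2281 gaps (5.94%) were under 1 kb. The overlap with H9 SOX2 was lower in genes with more peaks. It was 8.98% (8.19 to 9.84) of the peaks of genes with 1 peak, 7.36% (6.69 to 8.09) at 3 or 4 peaks, 5.37% (4.27 to 6.73) at 8 or more and 3.49% (2.19 to 5.52) in the 42 genes with 10 or more. Of the genes with 1 peak, 41.4% lay on chromosomes 1, 2, 3, 7, 9 and 12, against 86.4% at 8 or more and 92.9% at 10 or more. On those chromosomes 6.46% of all peaks overlapped H9 SOX2, against 11.6% on the others. The part of chromosome in the fall was not tested.

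The gene with most peaks was PLXNA4, a semaphorin receptor of axon guidance, with 18 peaks of 8 to 35 tags, 7 on the 5′ side and 11 on the 3′ side. LMNTD1 followed with 16 of 10 to 48 tags, then KCNA5, a potassium channel, with 15 of 13 to 59, WNK1, a kinase of ion transport, with 15 of 10 to 41, and PDE4B, a cAMP phosphodiesterase, with 15 of 8 to 31. None of these 5 had a strong peak. PLEKHA5 and PTPRO had 14 each, TSPAN9 had 13, and GRIK3, a kainate receptor subunit, HHAT, MACF1, LRP8, PALM2AKAP2 and ERG had 12 each. All 12 of GRIK3 lay on the 5′ side. PDE4DIP had 11, of 11 to 186 tags. Each peak counted for its nearer gene, and all TSSs of a gene were pooled. The part of gene length, of spacing between genes and of several TSSs in these counts was not tested.

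**Figure D4:**
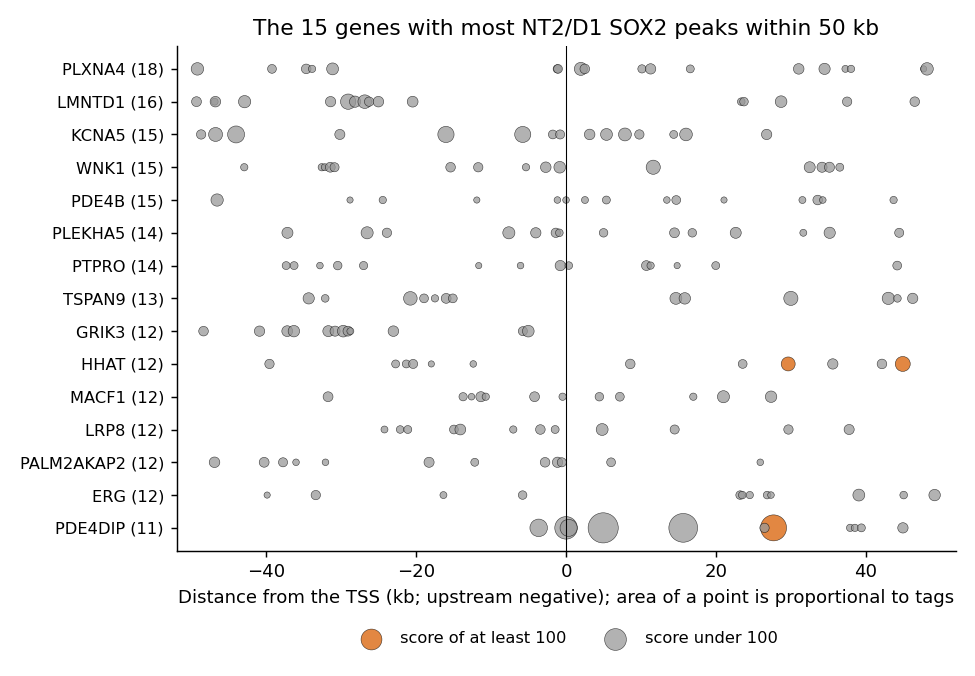
Position of NT2/D1 SOX2 peaks at the 15 genes with most peaks within 50 kb, in kb from the TSS listed for the peak (horizontal axis, 5′ negative), with the number of peaks after the gene name. The area of a point is proportional to tags; the 3 orange points, 2 at HHAT and 1 at PDE4DIP, have a score of at least 100.

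The 203 peaks of these 15 genes had a median of 18 tags and a median fold of 5.91. Of them 5 (2.46%) overlapped an H9 SOX2 peak, 48 (23.6%) an NT2/D1 NANOG peak and 16 (7.88%) an NT2/D1 OCT4 peak, against 8.36%, 14.6% and 11.1% of all peaks.

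Several strong peaks were rare at any gene. Only 7 had 2 each and none had more: LRRN2, HPCAL4, HHAT, BCOR, MYCNOS, TMPRSS11E and HAS3. Of these, HHAT is also among the 15 genes with most peaks. HPCAL4, a neuronal calcium sensor, had 90 and 54 tags with folds of 35.3 and 13.8, at 20.1 and 19.2 kb on its 5′ side, less than 1 kb apart. LRRN2 had 107 and 60 tags at 24.5 and 29.3 kb. BCOR, a Polycomb-associated corepressor, had 40 and 35 tags at 4.13 and 19.4 kb on the 3′ side, each from a different TSS of the gene. MYCNOS, the antisense neighbour of MYCN, had 32 and 43 tags. Of the 14 peaks, all but 1 each at LRRN2, HHAT, MYCNOS and HAS3 overlapped an H9 SOX2 peak.

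The widest peaks were of another kind. The 10 widest measured 2374 to 4417 bp and held 98 to 244 tags, but their folds were 2.83 to 13.0 and only that near PARP11 overlapped an H9 SOX2 peak. The widest lay 94.1 kb 5′ of FAM72D (chr1:144007241-144011657) with 244 tags and fold 3.42, and 3 others of the 10 were a second FAM72D peak and a pair near PDE4DIP, all between positions 144007241 and 145060434 of chromosome 1. LSP1P4, ATN1, ETV6, MUC20, PARP11 and MAP10 were the nearer genes of the rest. All 10 lay on chromosomes 1, 2, 3 and 12. FAM72D, LSP1P4 and MUC20 have near-identical copies elsewhere in the genome. Whether tags could be placed uniquely there was not tested.

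Peaks were unevenly spread over chromosomes. Chromosome 1 held 17.4% of all NT2/D1 SOX2 peaks and 14.1% of the strong ones, against 8.28% of the H9 SOX2 list. Chromosomes 1, 2, 3, 7, 9 and 12 together held 63.1% of all peaks, 55.0% of the strong ones and 46.6% of those at a score of 300 or more. The ratio of the share of NT2/D1 SOX2 peaks to that of H9 SOX2 peaks was highest on chromosome 21 (2.52), followed by 1 (2.11) and 19 (1.93), so the set leaves out chromosomes with a larger ratio than 2 (1.31) and 3 (1.21). For strong peaks the ratio was 2.13 on chromosome 21, 0.989 on chromosome 2 and 0.996 on chromosome 3. On chromosome 6 the order was the other way, with 1.98% of all and 3.98% of the strong NT2/D1 SOX2 peaks, against 7.18% of the H9 SOX2 list. The median tag count was 15 on chromosome 1, 14 on chromosomes 12 and 21, 13 on chromosome 7 and 10 or 11 on the others. The share of peaks with a fold on the genome-wide background was lowest on the same 4, at 25.3% to 33.8%, and reached 80.7% on the X chromosome.

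**Figure D5:**
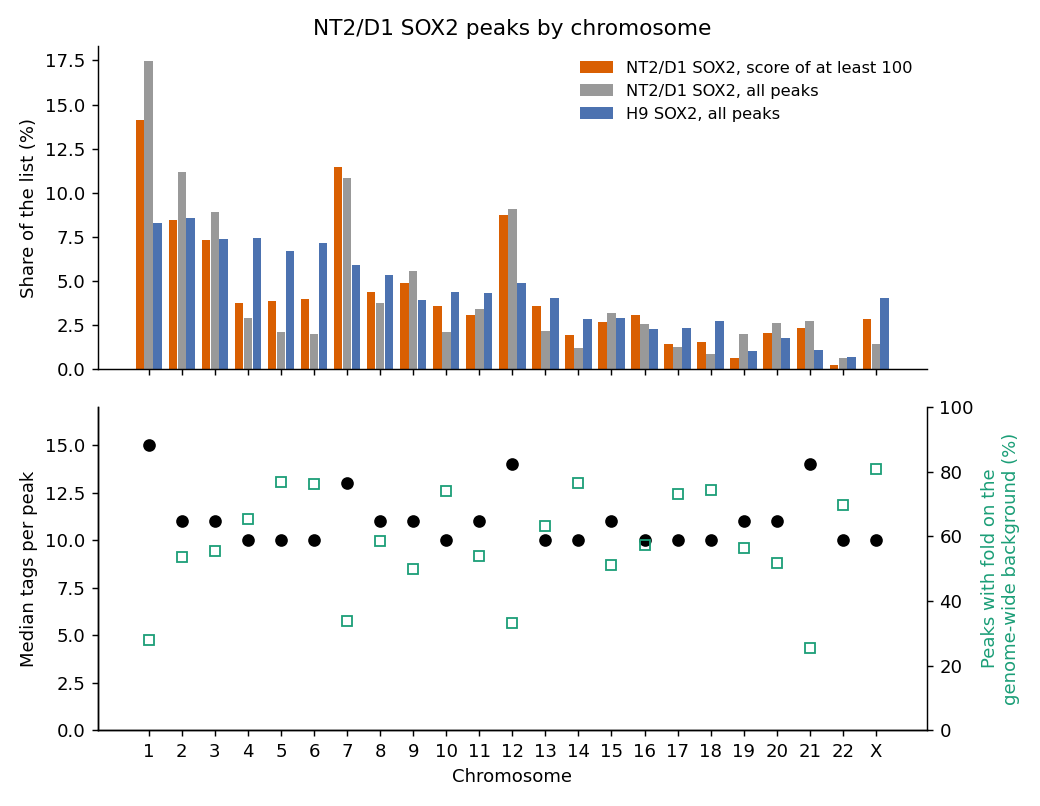
Upper panel, share of each list by chromosome (vertical axis, %) for NT2/D1 SOX2 peaks with a score of at least 100, for all NT2/D1 SOX2 peaks and for H9 SOX2 peaks. Lower panel, median tags per NT2/D1 SOX2 peak (black, left axis) and share of peaks whose fold is a whole number of tags over the genome-wide background (green squares, right axis, %); chromosomes 1, 7, 12 and 21 have the most tags and the lowest shares.

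The overlap with H9 SOX2 differed between chromosomes as well, from 3.50% on chromosome 19 and 5.14% on chromosome 21 to 20.8% on the X chromosome and 22.8% on chromosome 6. It was 6.46% (6.16 to 6.78) on the 6 chromosomes with most peaks and 11.6% (11.1 to 12.1) on the others, and among strong peaks 77.1% (72.9 to 80.8) and 91.4% (88.0 to 93.9). Copy number was not measured in these files, and its part in the spread over chromosomes was not tested.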

How the data were processed

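The authors called peaks with MACS for every ChIP library separately, with an IgG library as control, with a tag size of 50 and a p-value cutoff of 0.001, per the file headers. Coordinates are in hg19, as the submitters' processing notes state; the aligner and the version of the caller are not given in the sources used here. Per the file headers, each deposited peak has a whole-number tag count that is not normalised, a fold enrichment that is the authors' ratio over background, an FDR in percent, a width and a summit. The deposited score column has lost its name. The submitters added the neighbouring genes and their distances, per the file headers. Tags, folds and scores are the authors' values. They were used only within this list, apart from the rank correlation of NT2/D1 with H9 SOX2 scores at shared peaks.

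Here a peak was given to the nearer of the 2 genes listed, within 50 kb unless another limit is stated. Accessions were turned into symbols with the RefSeq table of GRCh38.p14, which held 15828 of 16563 (95.6%) and was used for names only; this also restored the symbols of 92 peaks whose gene field held a date. TSS positions were recovered from distances where at least 2 peaks gave the same position, for 22339 of 24784 accessions. Overlaps need 1 bp. Intervals are 95% Wilson intervals and cover counting error only. Python 3.11.15 with pandas 2.3.3, numpy 2.4.6 and scipy 1.17.1 was used, and the code was tested on simulated peaks.

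The members, gene lists and limits were chosen with earlier results of these data known, and the score limit of 100 after the values were seen. Genes are named by rule: the nearer genes of the 15 highest scores, of the 10 highest scores over a TSS and of the 10 widest peaks, the 15 genes with most peaks, each core pluripotency gene with a peak and at most 5 genes of every other list. Core genes without a peak, the microRNA hosts, genes with 2 strong peaks and those of strong peaks missing from other lists were named after their values were seen. A few genes that these rules name are left out of the text.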

Additional observations from a re-analysis of the deposited data

Results flagged for a closer look

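The list also held 18 peaks outside chromosomes 1 to 22 and X, which no comparison above used. Of these, 4 lay on chromosome Y and 14 on unplaced contigs. They held 8 to 82 tags with a median of 14.5, against a median of 11 over the peaks described.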

How the results depend on the processing

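No paired analysis was possible because each group had 1 library and no test was made. Of 58 recomputed values, 37 stayed within the interval of the main share or median, or within 1.5 times the main count. Without the widest 1% of peaks, with all chromosomes and with neighbours joined, no value moved beyond these limits. With the upper 50% of peaks by score, 3.68% lay within 1 kb of a TSS, the median distance was 52.9 kb, 5736 genes had a peak, 868 had 3 or more, and 13.4% of peaks overlapped H9 SOX2. With at least 10 tags the 1 kb share was 3.67%, the distance 51.8 kb and the overlap 10.4%. An FDR of at most 5%, which drops the strongest peaks here, left an overlap of 4.41%. Distances from the summit gave a 1 kb share of 2.76%, as the edge is always nearer. A window of 20 kb left 899 genes with 3 or more peaks. The overlap was 7.40% with summits within 200 bp and 5.28% with a reciprocal overlap of 50%. As alternatives added after seeing the data, a score of at least 100 gave a median distance of 61.7 kb, 346 genes with a peak, 0 with 3 or more, 17 core genes and an overlap of 83.5%. Without chromosomes 1, 2, 3, 7, 9 and 12, the 1 kb share was 3.67%, the overlap 11.6% and the core count 16, of the 20 core genes on other chromosomes. Unless stated, the cause was not tested. The smallest peak called had 8 tags, so weaker binding cannot be read from this list, and the part of depth in that limit was not tested.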
